A study of Bos taurus with 16 samples.

Results

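Bovine granulosa cell preparations were sequenced in 16 libraries, and 7 of them held almost no transcript of INHA, the inhibin alpha subunit that granulosa cells make in quantity. These 7 libraries, 4 labelled control (replicates 1, 5, 6 and 9) and 3 labelled treatment (replicates 1, 2 and 3), are described here and are called leukocyte-rich. The rule that chose them was a measured value, INHA under 200 CPM (counts per 1000000 counts of the library), so the level of INHA is a description. INHA stayed among the genes fitted below, and its fitted values there are no test of it. The member closest to the limit was treatment 1 at 111.4 CPM, and the library closest to it on the other side was at 1758.8 CPM. Limits of 100 and of 1000 CPM would have kept 6 and 7 libraries.

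The cows were lactating Holstein dairy cows from a cohort of 45, and no age in years was given. Every cow was brought into synchrony with GnRH at 53 ± 3 days post partum and prostaglandin F2α at 60 ± 3 days, and the dominant follicle was aspirated into heparinised medium and flushed 72 h later, at 63 ± 3 days. The cohort was followed for metritis, an infection of the uterus after calving that was treated with the antimicrobial ceftiofur, and for endometritis. The sample labels give only control and treatment: they do not say what treatment stands for, which cow gave which library, or whether a library is 1 cow, and p-values therefore measure only the spread between these libraries. The tissue field reads blood, whereas the protocols describe pelleted and washed granulosa cells. No sorting step was described.

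The fluid-filled follicle of the cow is lined by granulosa cells, which lie inside a basement membrane and have no blood supply of their own, while theca cells, vessels and leukocytes lie outside it. Macrophages of a tissue engulf dying cells, digest them in lysosomes and recycle their lipid and iron, and when stimulated they release interleukin 1, tumour necrosis factor and chemokines. T cells recognise peptides on MHC molecules and, through interferon gamma, raise MHC class II and the chemokines CXCL9 and CXCL10 on macrophages.

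The markers of leukocytes bore out the name. Listed in the order control 1, 5, 6 and 9 and then treatment 1, 2 and 3, as are all values that follow, CD14, with which macrophages sense lipopolysaccharide, was at 2940.1, 3724, 4031 and 2365 CPM in control and 1859, 2042 and 3873 CPM in treatment. CSF1R, the receptor for the macrophage growth factor, was at 3081, 2972, 1657 and 2652 CPM in control and 2182, 1355 and 2812 CPM in treatment. In the other 9 libraries these genes reached at most 332 and 143 CPM, so no leukocyte-rich library overlapped any of them. CD68, a lysosomal protein of macrophages, lay between 836 and 1640.4 CPM in the 7 and at most 540.5 CPM elsewhere. LAPTM5, a lysosomal protein of blood cell lineages, lay between 3487 and 5646 CPM and at most 519 CPM elsewhere, and PTPRC (CD45), the phosphatase on all leukocytes, between 118 and 312 CPM and at most 98.0 CPM. CD3E, a chain of the T cell receptor complex, was the exception among these 6 markers. The lowest leukocyte-rich library had 41.6 CPM and the highest of the others 70.5 CPM. Of 15 pan-leukocyte genes, 13 were at 10 CPM or more in all 7 libraries. The summed level of these 15 genes overlapped, at 9339 to 17897 CPM in the 7 and 2122 to 14750 CPM elsewhere. SRGN, an abundant member, had a median of 4580 CPM in the 7 and 5103 CPM elsewhere. Since the rule used these libraries' expression, no test was made between the 7 and the 9. Fewer cells of a type and less RNA per cell cannot be told apart in bulk samples, here or below.

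**Figure D1:**
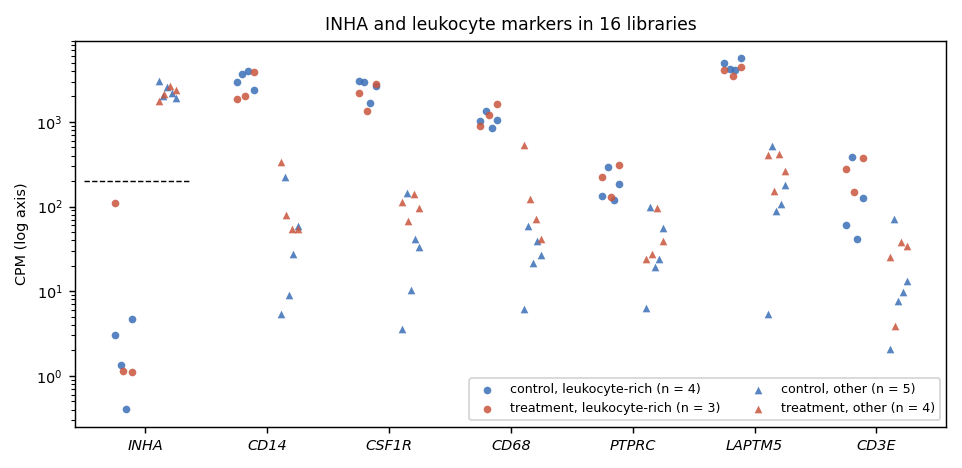
CPM on a log axis of INHA and of 6 leukocyte markers, 1 point per library, circles for the 7 leukocyte-rich libraries and triangles for the other 9, control in blue and treatment in red, with the 200 CPM limit of the rule dashed. The circles of CD14, CSF1R, CD68, PTPRC and LAPTM5 lie above every triangle, while for CD3E the lowest circles, at 41.6 and 59.9 CPM, lie under the highest triangle at 70.5 CPM.

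The 7 libraries held 8111862 to 13670928 counts in control and 9091250 to 12300560 in treatment, so that 3 counts correspond to 0.221 to 0.375 CPM. These limits take in counting error alone, since amplified reads were not marked as molecules. Levels are given as CPM of the summed accessions of a gene and compared only for the same gene across libraries, because transcript lengths were not given. Several genes that most cells use were listed near 0 in all 16 libraries, such as SOD2 (mitochondrial superoxide dismutase, at most 0.625 CPM in the 7), BAX (1.12 CPM), CTSL (0.410 CPM) and HSPB1 (0.0737 CPM). A low value of a gene therefore does not show that its transcript was missing. Correlations of log2 CPM between the 7 libraries ran from 0.921 to 0.965; the closest pair was control 5 with treatment 3 and the most distant pair was treatment 2 with treatment 3. The labels did not separate on the leading principal component of the 1000 most variable genes (37.8% of the variance), whose ends were treatment 2 at -36.28 and treatment 3 at 42.59 with all control libraries between.

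Comparing 3 treatment with 4 control libraries, 0 of 9912 genes tested passed (0%, edgeR's quasi-likelihood test, Benjamini-Hochberg adjusted p under 0.05 as threshold). The lowest adjusted p from edgeR was 0.9996 and the lowest unadjusted p 0.00162. An unadjusted p under 0.05 was reached by 259 genes (2.61%), 140 higher in treatment (1.41%) and 119 lower (1.2%). Every treatment library lay above every control library for 197 genes (1.99%) and under every control library for 183 (1.85%). With limma-voom 0 genes passed as well, with 273 at an unadjusted p under 0.05. DESeq2 passed 1, a transcript with no symbol in the gene table, XM_015465033.1, at 0.0737, 0, 0.0808 and 0 CPM in control and 9.90, 11.3 and 0.506 CPM in treatment, with 467 at an unadjusted p under 0.05. That transcript did not pass edgeR's filter on low counts and was high in treatment 1 and 2 only. In simulated counts with the same library sizes and the spread fitted per gene, the test recovered 0% of 50 genes changed 2-fold. It recovered 52% of 50 changed 4-fold, 78% of 50 changed 8-fold and 76% of 50 changed 16-fold, and made 5 false calls. Genes were simulated independently of each other, and changed genes had a mean log2 CPM of 1 or more. Recovery in the real libraries may therefore be lower. Differences of about 2-fold were mostly not detectable with 7 libraries, and larger ones could be missed. Differences between treatment and control below are therefore values, with standard errors (SE) on the log2 scale of edgeR's fit, and none of them passed: the adjusted p from edgeR was 0.9996 or more for every gene.

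Genes of 45 lists of cell types and states were read in turn. Of 421 listed genes tested, 0 passed and 22 had an unadjusted p under 0.05 (5.23%, against 2.61% of all genes). Of the 421, 3 lay wholly above and 3 wholly under the control libraries (0.713% each, against 1.99% and 1.85% of all genes). INHA, the gene of the rule, is among the 421 and the 22, so these counts include the gene that chose the libraries. The median log2 fold change of all genes tested was 0.01, and 51.1% of them had a higher fitted value in treatment, and list medians are read against these.

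**Figure D2:**
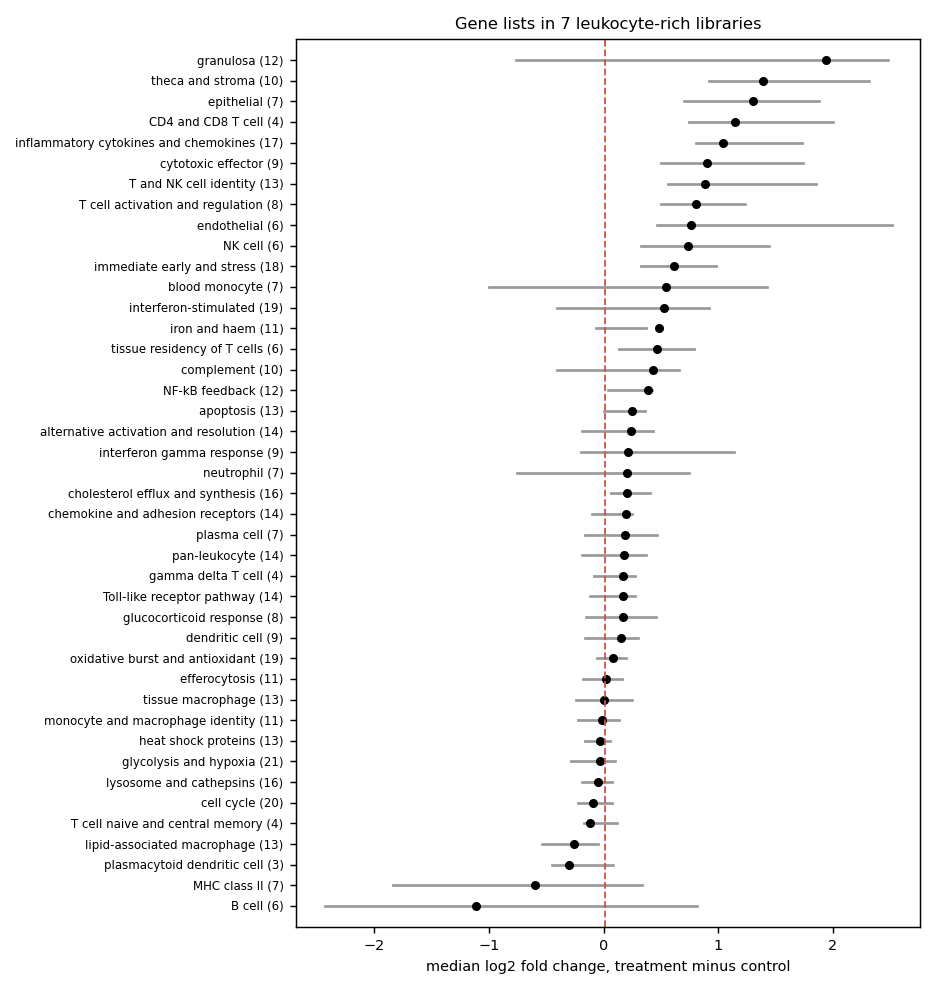
Median log2 fold change, treatment minus control, of each list with at least 3 genes tested (number in brackets) as a black point, and the lowest to highest median when each of the 7 libraries was left out in turn as a grey line; the dashed line is the median of all genes tested, 0.01. The lines of 27 of the 42 lists drawn reach both sides of 0, and the iron and haem point lies outside its own line.

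The macrophage programme was present in every library and its levels overlapped between control and treatment. Genes of macrophage identity were at 10 CPM or more in all 7 libraries for 11 of 13 members found, and their median log2 fold change was -0.02. FCGR1A, the high-affinity IgG receptor, lay between 669 and 1263 CPM, and SIRPA, which binds the self signal CD47, between 901 and 1673 CPM. CD14 had a log2 fold change of -0.32 ± 0.35 (SE) and CSF1R of -0.28 ± 0.33 (SE), with overlapping groups. CD68 (log2 fold change 0.24 ± 0.27 SE) and PTPRC (log2 fold change 0.31 ± 0.41 SE) took the opposite sign, -0.09, without treatment 3. LAPTM5 had -0.22 ± 0.20 (SE). With 1 library left out in turn CD14 ran from -0.81 (without treatment 3) to -0.11 (without treatment 1), CSF1R from -0.61 (without treatment 3) to -0.018 (without treatment 2) and LAPTM5 from -0.36 (without treatment 3) to -0.10 (without treatment 2).

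Genes of resident tissue macrophages were detected as well, at 10 CPM or more in all 7 libraries for 9 of 14 members found. CD163, of the same list, was low, between 2.70 and 18.5 CPM, and did not exceed 1.53 CPM in the other libraries of the series. MERTK, a receptor for dying cells, was at 464, 437, 516 and 515 CPM in control and 334, 551 and 529 CPM in treatment, which is a narrow range with no order between the groups. FOLR2, the folate receptor of resident macrophages, lay between 113 and 181 CPM and MSR1, a scavenger receptor, between 555 and 770.5 CPM. TIMD4, which binds phosphatidylserine on dying cells, was at 391, 165, 43.7 and 388 CPM in control and 105, 244 and 123 CPM in treatment, and LYVE1, a hyaluronan receptor of perivascular macrophages and lymphatics, at 109, 275, 308 and 20.1 CPM in control and 297, 556 and 199 CPM in treatment. TIMD4 was highest in control 1 and 9, and LYVE1 was lowest in control 9, so these genes did not follow each other. C1QC, a chain of the complement protein C1q made by macrophages, had the widest range of the tissue macrophage genes found at 10 CPM or more in all 7 libraries, at 567, 1429, 45.5 and 503 CPM in control and 294, 467 and 4004 CPM in treatment; C1QC stood highest in treatment 3 and lowest in control 6. The median of the tissue macrophage list was 0.01 over 13 genes tested, with 7 higher and 6 lower.

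Lysosomal and lipid genes differed between libraries of both labels. LGMN, the lysosomal protease legumain, was at 13804, 10585, 8831 and 4915 CPM in control and 7876, 11452 and 9008 CPM in treatment, CTSK, the collagen-degrading cathepsin K, at 5992, 2845, 8828 and 3008 CPM in control and 8919, 9489 and 2150.4 CPM in treatment, and PSAP, the precursor of the saposins that help break down sphingolipids, at 8078, 5309.9, 7016 and 12121 CPM in control and 6289, 9189 and 4718 CPM in treatment. CTSK was low in control 5 and 9 and treatment 3, and the groups overlapped for all of these genes. Of 16 lysosomal genes tested the median log2 fold change was -0.05. Lipid-associated macrophage genes had a median of -0.26 (4 of 13 higher), which ran from -0.54 without treatment 2 to -0.051 without control 9. Among them GPNMB, a glycoprotein of lipid-loaded macrophages, was at 1886, 2352, 919 and 2204 CPM in control and 1227, 2493 and 653 CPM in treatment, and APOE, the lipid carrier, at 1659, 324, 124 and 3374 CPM in control and 148, 726 and 63.5 CPM in treatment. FABP5, a fatty acid carrier, was at 3861, 2119, 4395 and 5537 CPM in control and 3008, 3367 and 1182 CPM in treatment; it was lowest in treatment 3. FABP4, a related carrier, was high in control 9 (727 CPM) against at most 72.2 CPM in the other 6 libraries. Efferocytosis genes (median 0.02) and cholesterol genes (0.20) lay near the median of all genes.

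Markers of circulating cells varied between libraries. FCN1 (ficolin, a pattern receptor of blood monocytes) lay between 10.9 and 62.1 CPM and S100A12 (a calcium-binding protein of neutrophils and monocytes) between 0.750 and 44.0 CPM, against at most 7.69 and 13.2 CPM in the other 9 libraries. Of the neutrophil list, LTF (lactoferrin) was at 0 counts in all 7 libraries, so that at most 3 counts, 0.221 to 0.375 CPM, are allowed, and MPO (myeloperoxidase) did not exceed 0.445 CPM. The neutrophil list summed to 24.7 to 3863 CPM in control and 931 to 1419 CPM in treatment. MMP9 (gelatinase B, also made by macrophages) was at 39.8, 368, 3785 and 10.5 CPM in control and 1377, 1238 and 118 CPM in treatment, the larger part of the sum in control 5 and 6 and treatment 1 and 2. S100A8, a subunit of calprotectin, was at 17.1, 162, 57.0 and 0 CPM in control and 26.8, 40.1 and 736 CPM in treatment. In the other 9 libraries S100A8 had a median of 29.2 CPM and reached 171 CPM. MMP9 was highest in control 6 and S100A8 in treatment 3, so these did not move together. HBB (haemoglobin beta) stayed at or under 33.4 CPM in all 7 libraries and SLC4A1, a red cell membrane protein, was at 0 counts. Platelet ITGA2B did not exceed 0.147 CPM, whereas PF4, a chemokine of platelets that some macrophages also make, was at 315, 826, 1486 and 27.6 CPM in control and 410.4, 231 and 1752 CPM in treatment. SELP (P-selectin), also of the platelet list, was at 354 CPM in treatment 3 and at most 3.39 CPM in the rest of the 7. Which cells these transcripts came from was not tested. Without treatment 3 the medians of the blood monocyte list (0.55) and the neutrophil list (0.21) became -1.0 and -0.76.

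Levels of T cell genes differed widely between libraries of both labels. CD3E was at 59.9, 389, 41.6 and 125 CPM in control and 279, 148 and 371 CPM in treatment, high in control 5 and treatment 1 and 3 and low in control 1 and 6. CD3D, CD3G and CD2, of the same receptor complex and of T cell adhesion, kept the high libraries: CD3D was at 24.5, 156, 20.3 and 66.1 CPM in control and 149, 70.8 and 196 CPM in treatment, and CD2 at 28.0, 144, 14.8 and 64.7 CPM in control and 116, 42.4 and 179.8 CPM in treatment. Of 13 T and NK identity genes tested, 12 had a higher fitted value in treatment, and the median log2 fold change was 0.89 and ran from 0.56 without treatment 3 to 1.85 without control 5. CD3E had 0.82 ± 0.77 (SE), which was 0.43 without treatment 3 and 1.85 without control 5. Its groups overlapped, since control 5 held the highest level. CD28, the costimulatory receptor of T cells, was at 0.221, 1.98, 0.242 and 1.5 CPM in control and 4.0, 3.28 and 3.71 CPM in treatment, and all 3 treatment libraries lay above all 4 control libraries (log2 fold change 1.93 ± 0.76 SE), at levels of a few CPM.

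The T cells of each library were compared per unit of CD3E. CD8A, a chain of the CD8 coreceptor of cytotoxic T cells, amounted to 0.251, 0.193, 0.128 and 0.231 in control and 0.425, 0.121 and 0.215 in treatment of the CD3E level, so the share was highest in treatment 1 and lowest in treatment 2 and control 6. CD4, which marks helper T cells but is also made by macrophages in some species, amounted to 0.501, 0.366, 0.474 and 0.502 in control and 0.281, 0.638 and 0.580 in treatment of CD3E, lowest in treatment 1. CXCR6, a chemokine receptor of memory T cells that stay in tissue, held a narrow ratio, 0.563, 0.729, 0.579 and 0.531 in control and 0.769, 0.546 and 0.698 in treatment of CD3E. GZMK, a protease in the granules of cytotoxic memory T cells, amounted to 0.204, 0.103, 0.0757 and 0.139 in control and 0.194, 0.0155 and 0.177 in treatment, lowest in treatment 2. These ratios are of CPM, without transcript length, and can be compared between libraries but not between genes. The CD8 chains were counted by accession and reads shared with near-identical copies could have been split.

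Cytotoxic genes differed widely between libraries of both labels. GZMK was at 12.2, 40.0, 3.15 and 17.4 CPM in control and 54.3, 2.29 and 65.6 CPM in treatment, PRF1 (perforin, which opens pores in target cells) at 9.58, 77.6, 4.85 and 8.62 CPM in control and 47.2, 19.6 and 37.8 CPM in treatment and CCL5, a chemokine that cytotoxic T cells release, at 35.0, 166, 23.9 and 85.3 CPM in control and 226, 43.6 and 199.97 CPM in treatment. 8 of 9 cytotoxic genes tested had a higher fitted value in treatment, with a median of 0.90, which ran from 0.50 without treatment 3 to 1.74 without control 5. ICOS, an activation receptor of T cells, was at 6.41, 37.0, 2.83 and 9.99 CPM in control and 39.9, 16.9 and 39.6 CPM in treatment, and IFNG, the gene of interferon gamma, at 0.295, 1.08, 0.485 and 4.50 CPM in control and 4.23, 0.573 and 3.63 CPM in treatment; for both, the high libraries carried both labels. NK cell genes ranged from the floor upwards: NCR1 did not exceed 1.35 CPM, NCR3 was at 0 counts and KLRD1 did not exceed 2.25 CPM. In the same list KLRK1 lay between 1.29 and 9.45 CPM, EOMES between 2.21 and 13.2 CPM and TBX21 between 4.28 and 78.6 CPM. 2 of 6 listed gamma delta T cell genes were under 1 CPM in all 7 libraries.

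Among the 7, genes of B cells stood out in 1 library. MS4A1 (CD20) was at 3.83, 222, 14.0 and 23.0 CPM in control and 7.23, 15.1 and 22.8 CPM in treatment, and CD79A, part of the B cell receptor, at 2.21, 78.1, 4.04 and 4.75 CPM in control and 1.00, 7.05 and 26.4 CPM in treatment; control 5 was highest for both. POU2AF1, a coactivator of B cells, was at 55.7 CPM in control 5 and at most 5.24 CPM in the other 6. These levels were not particular to the leukocyte-rich libraries. In the other 9, MS4A1 had a median of 32.5 CPM and reached 216 CPM, and POU2AF1 had a median of 16.9 CPM and reached 50.6 CPM. The B cell list had a median of -1.11 (1 of 6 higher), which became 0.81 without control 5 and -2.44 without treatment 3. CR2 (complement receptor 2) was out of step with these genes, at 245, 804, 237 and 950.3 CPM in control and 51.2, 151 and 3393 CPM in treatment, highest in treatment 3. JCHAIN, which joins secreted antibodies, was at 15., 32.4, 6.46 and 239 CPM in control and 26.2, 59.6 and 23.3 CPM in treatment, highest in control 9.

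Dendritic cell genes were mostly low, and the classical markers XCR1, ZBTB46 and BATF3 did not exceed 1.35, 0.667 and 0.125 CPM. FSCN1, of the same list, was higher and lay between 32.4 and 189 CPM. LAMP3, of mature dendritic cells, was at 8.70, 80.3, 14.0 and 29.7 CPM in control and 59.5, 24.4 and 62.7 CPM in treatment. CD1E, which helps load lipid antigens, was at 11.3, 14.8, 35.1 and 240.1 CPM in control and 40.0, 7.13 and 6.92 CPM in treatment, with control 9 far above the rest. KIT and TPSB2 of mast cells did not exceed 0.983 and 0.164 CPM.

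**Figure D3:**
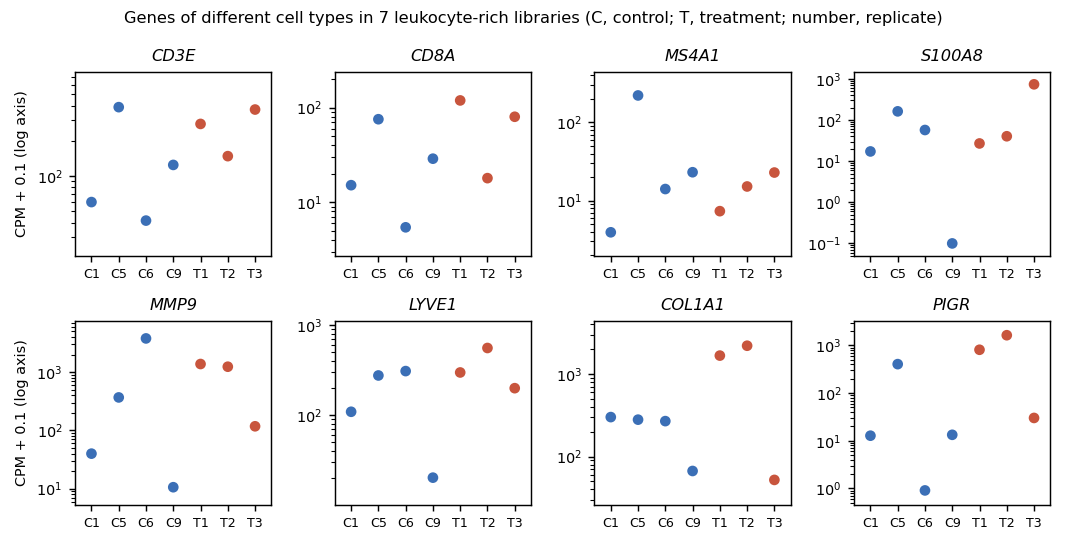
CPM plus 0.1 on a log axis of 8 genes of different cell types in each of the 7 leukocyte-rich libraries, control in blue and treatment in red. CD3E and CD8A are high in control 5 and treatment 1 and 3, MS4A1 in control 5 and S100A8 in treatment 3, while COL1A1 and PIGR are high in treatment 1 and 2.

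Cells other than leukocytes were also represented, unequally. CYP19A1 (aromatase) was at 16.1, 1.08, 2.34 and 36.7 CPM in control and 1027, 15.4 and 7.26 CPM in treatment and INHBA, the subunit of activin A, at 90.1, 16.1, 45.9 and 76.0 CPM in control and 2461, 55.1 and 21.9 CPM in treatment; SERPINE2, an inhibitor of proteases made by granulosa cells, was at 145, 106, 111 and 108 CPM in control and 1528, 90.3 and 106 CPM in treatment. Treatment 1 stood alone in all of these, as in INHA (3.02, 1.35, 0.404 and 4.75 CPM in control and 111, 1.15 and 1.1 CPM in treatment). The other 9 libraries held 10234 to 66709 CPM of INHBA and 28906 to 61133 CPM of SERPINE2, so treatment 1 lay under all of them in both, whereas for CYP19A1 (276 to 28576 CPM there) it lay within their range. The granulosa list, of which INHA is a member, had a median of 1.94 in treatment against control and -0.77 without treatment 1. INHA, INHBA, CYP19A1 and SERPINE2 changed sign without that library. FSHR, the receptor for follicle-stimulating hormone, was at 4.2, 0.449, 1.94 and 0.250 CPM in control and 16.9, 0.164 and 0.0844 CPM in treatment.

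Stromal collagens were high in treatment 1 and 2 and not in treatment 3. COL1A1, type I collagen of fibroblasts and theca, was at 300.3, 279.6, 268 and 66.7 CPM in control and 1670.3, 2199 and 52.0 CPM in treatment; treatment 3 lay under every control library. COL3A1 was at 207, 315, 819 and 267 CPM in control and 1639, 2731 and 47.8 CPM in treatment, with the same libraries at the top. COL1A1 had 2.46 ± 1.03 (SE), and 10 of 10 theca and stroma genes tested had a higher fitted value in treatment, with a median of 1.39 (0.92 without treatment 2, 2.32 without control 6). Epithelial genes were high in the same libraries and in control 5: PIGR, which carries antibodies across epithelia, was at 12.7, 406, 0.808 and 13.2 CPM in control and 813, 1642 and 30.0 CPM in treatment and EPCAM, an epithelial adhesion protein, at 3.39, 48.2, 0.727 and 2.87 CPM in control and 54.7, 132 and 8.94 CPM in treatment. These levels were not particular to the 7 libraries. Elsewhere in the series PIGR reached 1267 CPM and EPCAM 192 CPM. The summed level of the epithelial list was 28.1 to 2242 CPM in the 7 and 24.3 to 3843 CPM elsewhere. Of endothelial genes, CDH5 (VE-cadherin) was at 0 counts in 5 of the 7 libraries, and VWF, a clotting factor of vessels, was at 5.67, 21.3, 29.2 and 10.5 CPM in control and 14.8, 22.8 and 164 CPM in treatment, highest in treatment 3. TIE1, a receptor of vessels, was at 0, 0.359, 17.0 and 1.75 CPM in control and 0.222, 17.4 and 1.52 CPM in treatment, highest in control 6 and treatment 2. 6 of 6 endothelial genes tested had a higher fitted value in treatment, with a median of 0.77 that ran from 0.47 without treatment 3 to 2.52 without control 6. The part of such cells in any difference named here was not tested.

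Genes of inflammatory cytokines stood high in treatment 2 and 3. IL1A, interleukin 1 alpha, was at 64.6, 28.5, 80.6 and 56.2 CPM in control and 57.1, 869 and 408 CPM in treatment. IL1B, interleukin 1 beta, was at 111, 170.03, 181 and 72.6 CPM in control and 108, 379 and 1058 CPM in treatment, and TNF at 0.147, 0.0898, 1.29 and 0.375 CPM in control and 1.11, 8.11 and 3.04 CPM in treatment. Treatment 2 and 3 lay above all 4 control libraries for each of these, while treatment 1 lay within the range of the control libraries. IL1A had 2.94 ± 0.80 (SE), IL1B 1.99 ± 0.73 (SE) and TNF 3.04 ± 0.98 (SE), where TNF was at few counts; the value of IL1B was 0.81 without treatment 3. 15 of 17 cytokine and chemokine genes tested had a higher fitted value in treatment, with a median of 1.04, which ran from 0.81 without treatment 3 to 1.73 without control 6.

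The chemokines CXCL8, CXCL2 and CCL4 showed the same libraries at the top, with less distance from control 6, while CCL2 and CXCL5 did not. CXCL8, the main attractant of neutrophils, was at 402, 434, 1463 and 136 CPM in control and 137, 1908 and 2753 CPM in treatment and CXCL2, another, at 199, 211, 556 and 22.4 CPM in control and 69.0, 940.02 and 1735 CPM in treatment. CCL4, which attracts T cells and monocytes, was at 287, 85.8, 494 and 130.3 CPM in control and 78.0, 1877 and 626 CPM in treatment. Treatment 2 and 3 lay above all 4 control libraries for each, control 6 was the highest control library, and treatment 1 lay within or under the control range. CCL2, which draws monocytes, was at 1185, 3419, 6790.1 and 1665 CPM in control and 4104, 3656 and 7790.1 CPM in treatment, with treatment 2 under control 6. CXCL5 was at 628, 2510, 4440 and 37.4 CPM in control and 1210, 2296 and 4411 CPM in treatment. It was highest in control 6, and treatment 2 lay under control 5 and 6. CCL8, a relative of CCL2, was even, between 402 and 783 CPM. IL10, which restrains macrophages, was at 68.0, 46.3, 39.6 and 25.2 CPM in control and 23.4, 75.5 and 171 CPM in treatment, highest in treatment 3. IL6 was at 1.18, 3.32, 28.9 and 1.12 CPM in control and 15.9, 48.7 and 18.3 CPM in treatment, with control 6 above treatment 1 and 3. Reads of close relatives among the CXCL and CCL genes could have been split.

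Inhibitors that NF-kB, the transcription factor downstream of these cytokines, induces against itself showed the same order for some genes only. NFKBIZ, a nuclear regulator of NF-kB, was at 116, 60.7, 144 and 122 CPM in control and 98.2, 861 and 496 CPM in treatment (log2 fold change 2.13 ± 0.65 SE), high in treatment 2 and 3. TNFAIP3 (A20), which removes ubiquitin from the signalling complex, was at 25.2, 39.6, 22.2 and 51.3 CPM in control and 36.8, 251 and 58.1 CPM in treatment (log2 fold change 1.73 ± 0.65 SE), high in treatment 2 and at 0.51 without it. NFKBIA, the cytoplasmic inhibitor, was at 1328, 578, 1284 and 811 CPM in control and 531, 2797 and 1686 CPM in treatment, and NFKBIE and NFKB1 did not separate the libraries (53.2 and 78.5 and 164 and 294 CPM). The list median was 0.39 and 0.04 without treatment 3. Of the Toll-like receptor pathway, MYD88, the common adaptor, lay between 291 and 464 CPM and PYCARD, the adaptor of inflammasomes, between 149 and 767 CPM. The list median was 0.17 and -0.12 without treatment 3.

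**Figure D4:**
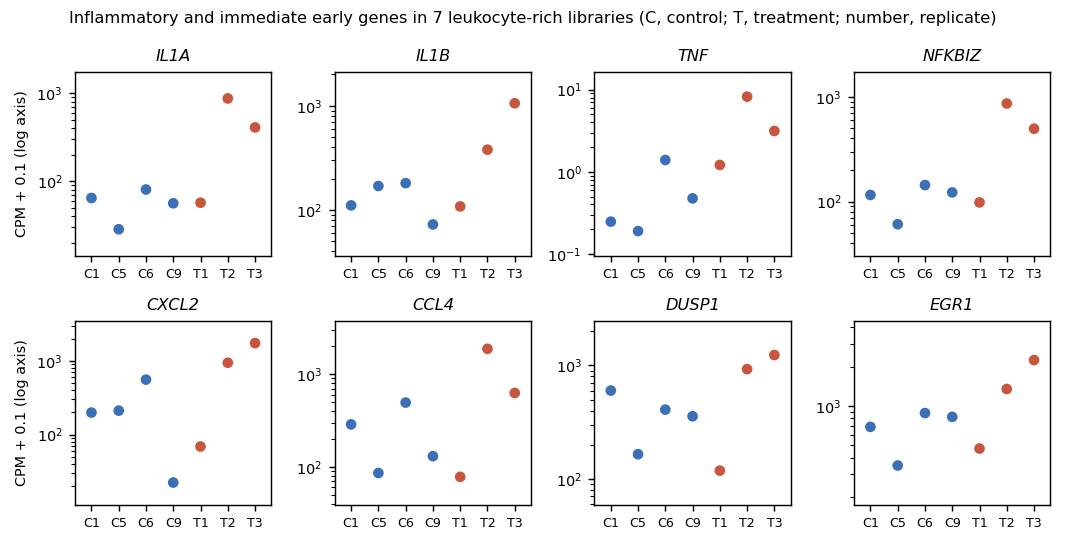
CPM plus 0.1 on a log axis of 8 inflammatory and immediate early genes in each of the 7 leukocyte-rich libraries, control in blue and treatment in red. Treatment 2 and 3 lie above all 4 control libraries for IL1A, IL1B, TNF, NFKBIZ, CXCL2, CCL4, DUSP1 and EGR1, and treatment 1 does not for any of them.

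Immediate early genes, which cells switch on within minutes of a stimulus, had 17 of 18 fitted values higher in treatment and a median of 0.61, which ran from 0.33 without treatment 3 to 0.98 without treatment 1. FOS was at 2433, 446, 1171 and 922 CPM in control and 299, 2761 and 2256 CPM in treatment, EGR1 at 689, 348, 879.96 and 823 CPM in control and 470.2, 1346 and 2242 CPM in treatment and DUSP1, a phosphatase that switches off MAP kinases, at 600.1, 165, 408 and 356 CPM in control and 118, 927 and 1236 CPM in treatment. Treatment 1 and control 5 were low and treatment 2 and 3 high; control 1 was close to treatment 2 and 3 for FOS. NR4A1, a nuclear receptor of the same class, was at 0.663, 0.898, 2.75 and 5.00 CPM in control and 4.89, 9.18 and 10.9 CPM in treatment (log2 fold change 1.89 ± 0.70 SE). MYC, a transcription factor of growth, ran the other way: it was at 21.8, 19.2, 16.7 and 20.2 CPM in control and 13.3, 11.9 and 11.0 CPM in treatment (log2 fold change -0.70 ± 0.19 SE), and every treatment library lay under every control library. Heat shock genes had a median of -0.03, with HSP90AA1 at -0.42 ± 0.18 (SE).

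Interferon-stimulated genes were high in treatment 1 and control 9. ISG15, a ubiquitin-like protein, was at 22.3, 13.8, 41.0 and 82.3 CPM in control and 191, 42.3 and 17.4 CPM in treatment, OAS2, which makes the activator of RNase L, at 8.84, 4.94, 2.99 and 52.0 CPM in control and 82.5, 12.8 and 5.74 CPM in treatment, and RSAD2 (viperin) at 7.59, 15.9, 13.8 and 66.8 CPM in control and 141, 10.3 and 24. CPM in treatment. 17 of 19 interferon-stimulated genes tested had a higher fitted value in treatment, with a median of 0.53 that turned to -0.41 without treatment 1 and was 0.92 without control 9. OAS1X was at 25.4, 15.9, 15.5 and 33.7 CPM in control and 54.6, 42.9 and 46.7 CPM in treatment, and every treatment library lay above every control library (log2 fold change 1.09 ± 0.29 SE). OAS1X and OAS1Y are close copies, and reads could have been split between them.

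Chemokines of the response to interferon gamma were highest in control 9. CXCL9 was at 0.147, 9.34, 2.58 and 224 CPM in control and 21.8, 2.21 and 18.1 CPM in treatment, CXCL10 at 0.811, 40.3, 13.9 and 205 CPM in control and 113, 5.57 and 100.2 CPM in treatment and CXCL11 at 0, 0.808, 0.888 and 65.3 CPM in control and 6.45, 0.737 and 3.46 CPM in treatment. PSMB9 and WARS1, of the same list, did not set control 9 apart by as much. PSMB9 was highest in treatment 1, at 50.0 CPM against 42.1 CPM in control 9. WARS1 lay between 187 and 370 CPM, highest in control 9 and next in treatment 3 at 346 CPM. The mean log2 CPM of the whole list was also highest in control 9, at 4.91, against 1.55 to 3.69 in the other libraries. Of MHC class II, BOLA-DRA, the alpha chain of the DR molecule, was at 1928, 3545, 1291 and 10859 CPM in control and 2198, 299 and 5786 CPM in treatment. CD74, its chaperone, was at 262, 485, 189.8 and 1524 CPM in control and 241, 58.7 and 627 CPM in treatment. For BOLA-DRA and CD74 control 9 was highest, treatment 3 next and treatment 2 lowest. The highest and the lowest library thus carried different labels, but the groups overlapped. Per unit of CD14, BOLA-DRA amounted to 0.656, 0.952, 0.320 and 4.59 in control and 1.18, 0.146 and 1.49 in treatment. The MHC class II list had a median of -0.60 (2 of 7 higher), which became 0.34 without control 9 and -1.84 without treatment 3. The beta chains listed by symbol, BOLA-DQB and BOLA-DYB, did not exceed 0.375 and 0.629 CPM. MHC genes differ in sequence between animals and between copies, and their counts are uncertain.

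**Figure D5:**
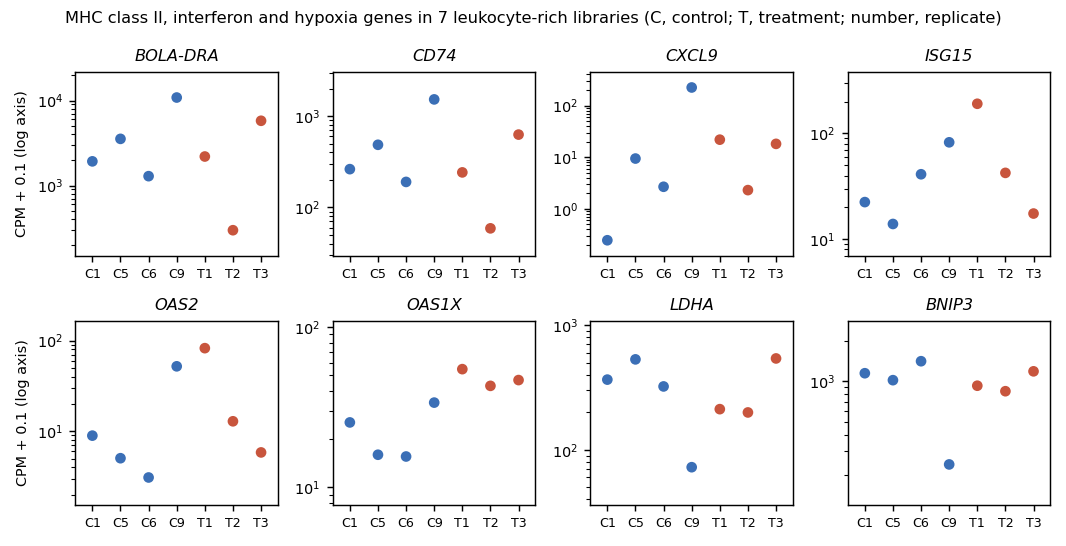
CPM plus 0.1 on a log axis of 8 genes of MHC class II, interferon response and hypoxia in each of the 7 leukocyte-rich libraries, control in blue and treatment in red. Control 9 is highest for BOLA-DRA, CD74 and CXCL9 and lowest for LDHA and BNIP3, treatment 1 is highest for ISG15 and OAS2, and for OAS1X the red points lie above the blue ones.

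Genes of glycolysis and hypoxia set control 9 apart in the other direction. LDHA (lactate dehydrogenase A) was at 365, 531, 322 and 72.5 CPM in control and 212, 199 and 539.8 CPM in treatment, BNIP3, a mitochondrial protein induced without oxygen, at 1147, 1018, 1410.01 and 239 CPM in control and 925, 842 and 1185 CPM in treatment, and EGLN3, an oxygen sensor, at 6.5 CPM in control 9 against at least 99.7 CPM in the other 6 libraries. The summed level of the list was 12954 CPM in the lowest and 27692 CPM in the highest control library and 20510.3 to 28281 CPM in treatment, and the list median was -0.03. PFKP, a phosphofructokinase, was at 329, 258, 262 and 367 CPM in control and 273, 222 and 168 CPM in treatment (log2 fold change -0.47 ± 0.19 SE).

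Genes of other macrophage activities mostly had groups that overlapped. HMOX1, which degrades haem, was at 907, 962, 1137 and 956 CPM in control and 6477, 580.4 and 696 CPM in treatment, high in treatment 1, while treatment 2 and 3 lay under every control library, and FTH1, the heavy chain of the iron store ferritin, was between 9351 and 19152 CPM. SLC11A2, an iron transporter, was at 306, 198, 264 and 222 CPM in control and 109, 115 and 168 CPM in treatment, and every treatment library lay under every control library (log2 fold change -0.92 ± 0.25 SE). CYBB, the catalytic subunit of the oxidative burst, was at 1222, 1880.1, 488 and 2176 CPM in control and 1513, 586 and 4549 CPM in treatment, and SRXN1, which repairs oxidised peroxiredoxins, at 249.5, 299.5, 353 and 401 CPM in control and 824, 357 and 561 CPM in treatment (log2 fold change 0.84 ± 0.29 SE), with 0.54 without treatment 1. NOS2, inducible nitric oxide synthase, was at 3.98, 15.1, 5.49 and 0 CPM in control and 23.7, 0.573 and 124 CPM in treatment, highest in treatment 3. Its levels were not particular to the leukocyte-rich libraries: in the other libraries of the series NOS2 had a median of 297 CPM and reached 674 CPM. Complement genes had a median of 0.43 and -0.40 without treatment 3; CFP (properdin), which stabilises the alternative pathway, lay between 289.96 and 715 CPM, and CD55, which protects cells from complement, was at 0.590, 1.17, 0.323 and 0.250 CPM in control and 1.89, 0.737 and 4.22 CPM in treatment (log2 fold change 1.97 ± 0.77 SE), with 1.07 without treatment 3. The medians of the alternative activation list (0.24), the glucocorticoid list (0.17), the antioxidant list (0.08) and the apoptosis list (0.25) became -0.19, -0.16, -0.057 and 0.0070 without treatment 3.

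Of 23 cell cycle genes found, 15 were at 10 CPM or more in all 7 libraries. BIRC5 (survivin), which is made in dividing cells, lay between 163 and 339.9 CPM and CCNB1 (cyclin B1) between 134 and 253 CPM. MCM4, a subunit of the helicase that opens DNA for replication, was at 202, 174, 171 and 148 CPM in control and 118, 134 and 85.9 CPM in treatment, and every treatment library lay under every control library (log2 fold change -0.64 ± 0.18 SE). MCM3, another subunit, was at 314, 299, 266 and 233 CPM in control and 211, 253 and 163 CPM in treatment (log2 fold change -0.43 ± 0.18 SE), with the groups overlapping. 6 of 20 cell cycle genes tested had a higher fitted value, with a median of -0.09.

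Of the 25 named genes with the lowest p, 16 were higher and 9 lower in treatment, and the highest p among them was 0.0125. They were chosen by their p, so that little overlap between the groups follows from the choice. CXCL14, a chemokine of epithelia and stroma, was at 0.442, 1.26, 1.70 and 1.5 CPM in control and 3.78, 6.06 and 6.08 CPM in treatment (log2 fold change 2.13 ± 0.48 SE). MIER3, a chromatin repressor, was at 8.84, 7.99, 9.53 and 8.74 CPM in control and 14.7, 16.1 and 19.3 CPM in treatment (log2 fold change 0.93 ± 0.22 SE), and BRD3, a reader of acetylated histones, at 43.1, 41.0, 38.1 and 42.9 CPM in control and 63.6, 61.9 and 51.7 CPM in treatment (log2 fold change 0.51 ± 0.13 SE). In all of these the lowest treatment library lay above the highest control library.

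Genes of signalling were among them. PRKACB, a catalytic subunit of protein kinase A, was at 6.26, 9.34, 8.56 and 8.87 CPM in control and 14.5, 18.5 and 13.9 CPM in treatment (log2 fold change 0.92 ± 0.23 SE). DAB2IP, an inhibitor of Ras signalling, was at 2.51, 3.32, 4.85 and 1.5 CPM in control and 5.23, 12.8 and 21.9 CPM in treatment (log2 fold change 2.14 ± 0.58 SE), and TCF7L2, a transcription factor of the Wnt pathway, at 13.5, 13.1, 15.1 and 9.62 CPM in control and 16.6, 32.1 and 31.7 CPM in treatment (log2 fold change 1.06 ± 0.31 SE). ARHGAP35, a GTPase-activating protein, lay between 24.4 and 75.9 CPM (log2 fold change 0.89 ± 0.25 SE) and CREB3L1, a transcription factor released from the endoplasmic reticulum, between 6.63 and 59.6 CPM (log2 fold change 1.55 ± 0.47 SE). All of these had groups that did not overlap.

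Some genes at few CPM in most libraries had larger but less certain folds. NPR3, the clearance receptor of natriuretic peptides, was at 0.295, 0.539, 0.404 and 0.375 CPM in control and 45.4, 2.13 and 1.1 CPM in treatment (log2 fold change 5.25 ± 1.33 SE), where treatment 1 was high and the value without it was 1.98. GLT1D1 was at 0.295, 2.07, 0.242 and 0.375 CPM in control and 1.45, 3.20 and 72.1 CPM in treatment (log2 fold change 5.17 ± 1.56 SE), where treatment 3 was high and the value without it was 1.58. KIR2DS1, of the killer cell receptor family whose members are alike in sequence, was at 9.80, 1.80, 10.7 and 3.75 CPM in control and 0.334, 1.47 and 0.0844 CPM in treatment (log2 fold change -3.37 ± 1.01 SE). CAST (calpastatin, log2 fold change 1.37 ± 0.35 SE) and TMEM106A (log2 fold change 1.32 ± 0.36 SE) were higher in every treatment library. At higher levels and with smaller folds, RPLP2, a ribosomal protein with close copies, lay between 39.1 and 92.7 CPM (log2 fold change 0.79 ± 0.24 SE). BOLA, listed under the symbol of MHC class I, lay between 37.6 and 111 CPM (log2 fold change 0.97 ± 0.28 SE) with overlapping groups.

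Lower fitted values in treatment included GGCT, an enzyme of glutathione breakdown, at 136, 106, 119.6 and 181 CPM in control and 85.2, 84.4 and 84.0 CPM in treatment (log2 fold change -0.68 ± 0.19 SE), and XPNPEP2, a membrane aminopeptidase, at 8.84, 4.31, 6.38 and 10.4 CPM in control and 2.78, 2.29 and 3.46 CPM in treatment (log2 fold change -1.38 ± 0.39 SE). MRPL55 (log2 fold change -1.04 ± 0.31 SE), of the mitochondrial ribosome, PRPSAP2 (log2 fold change -0.52 ± 0.16 SE), of nucleotide synthesis, and ZNF34 (log2 fold change -1.67 ± 0.50 SE), a zinc finger protein, completed them beside SLC11A2, MYC, MCM4 and KIR2DS1. The groups did not overlap for any of these 9 genes. CX3CR1, the fractalkine receptor, was at 4.79, 1.80, 1.78 and 44.3 CPM in control and 1.67, 1.23 and 0.844 CPM in treatment (log2 fold change -3.36 ± 1.33 SE), where control 9 alone was high and the value without it was -1.21. SELP (P-selectin) was at 0.0737, 2.16, 3.39 and 0.874 CPM in control and 1.56, 1.80 and 354 CPM in treatment (log2 fold change 6.26 ± 2.11 SE), which was -0.012 without treatment 3.

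Each library also had genes of its own. Counting genes at 10 CPM or more whose level in 1 library was at least 4-fold above or under that of every other, control 9 had 25 high and 13 low, treatment 3 had 27 and 6, treatment 1 had 22 and 1, treatment 2 had 19 and 3, control 6 had 13 and 4, control 5 had 11 and 0, and control 1 had 1 and 2. Control 9 was high for FABP4 (727 CPM), LY75, an endocytic receptor of dendritic cells (537 CPM), and PSMB8, a subunit of the immunoproteasome (40.5 CPM), and low for CXCL5 (37.4 CPM) and S100A8 (0 counts). Treatment 3 was high for SELP (354 CPM) and VWF (164 CPM), and for the plasma haemoglobin carrier HP (376 CPM) and LYZ2, a lysozyme with close copies (504 CPM). Treatment 2 was high for CLDN4, a tight junction protein (56.9 CPM), and low for BOLA-DRA (299 CPM). Control 6 was high for APOA1, the main protein of high-density lipoprotein (356 CPM), and for OXT, the oxytocin precursor (68.6 CPM), and low for C1QC (45.5 CPM). These genes were chosen on the values that describe them, and no test was made.

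Whether the difference between treatment and control was itself different from that in the other 9 libraries (5 control and 4 treatment) was tested over all 16 libraries. Of 11468 genes tested 0 passed in edgeR's quasi-likelihood test, the lowest Benjamini-Hochberg adjusted p being 0.643; 609 had an unadjusted p under 0.05 (5.31%). Among the 10 named genes with the lowest p, the differences of log2 fold change (leukocyte-rich minus others) were 7.39 ± 1.52 (SE) for NR4A1, 3.06 ± 0.69 (SE) for CEBPB, a transcription factor of macrophage activation, and 3.96 ± 0.97 (SE) for JUNB, of the AP-1 complex. The differences were 8.90 ± 2.04 (SE) for DLL4, a Notch ligand, 6.84 ± 1.42 (SE) for NPR3 and 8.42 ± 2.06 (SE) for CHAC1, an enzyme of glutathione breakdown. Among the 7 leukocyte-rich libraries treatment 1 was highest for these 3, at 67.7, 45.4 and 35.3 CPM, and the other 9 libraries held 20.3 to 1702, 24. to 1164 and 7.91 to 875 CPM. Without treatment 1 the differences were 5.26, 3.66 and 3.65, and that of CEBPB was 1.96 without treatment 3. Negative differences were -2.40 ± 0.60 (SE) for CTSZ, a cathepsin, -1.30 ± 0.33 (SE) for WDR46 and -6.25 ± 1.48 (SE) for CD164L2. CD164L2 did not exceed 1.02 CPM in the other 9 libraries. The difference of FUT11 was 1.77 ± 0.46 (SE). Fitted in the 7 leukocyte-rich libraries alone, NR4A1 had 1.89 ± 0.70 (SE), CEBPB 0.83 ± 0.56 (SE) and JUNB 0.85 ± 0.55 (SE). CTSZ had -0.54 ± 0.32 (SE), WDR46 -0.39 ± 0.18 (SE), CD164L2 -0.47 ± 0.48 (SE) and FUT11 0.39 ± 0.33 (SE). DLL4 had 5.57 ± 1.79 (SE) and NPR3 5.25 ± 1.33 (SE), and CHAC1 was not tested there. Each of these values was smaller in size than the difference, which also takes in the other 9 libraries. No treatment effect was thus shown to be particular to the leukocyte-rich libraries.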

How the data were processed

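RNA of 16 samples, 9 control and 7 treatment, was grouped by title. Poly(A) RNA came from 200 ng of total RNA (integrity number 7 or more), and was amplified for 12 cycles in an unstranded library kit, per the labels' protocols, so reads of overlapping and antisense genes cannot be told apart. The deposited files hold raw read counts per RefSeq accession, 1 file per library; cutadapt, SAMtools and Bowtie2 produced them, per the submitters' processing notes. Their versions, the genome build, the annotation and how multi-mapping reads were counted: not given in the sources used here.

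Of 27306 accessions, 133 genomic records (0.712 to 1.919% of a library's counts) were left out. RefSeq's gene table (ARS-UCD2.0, used for names only) matched 18973 of 27173 transcript accessions to 12429 symbols, ignoring versions. Accessions of a gene were summed, unmatched ones (3.61% of counts) were kept, and 20629 features resulted. CPM are counts per 1000000 of the library's feature total. Treatment was compared with control among the 7 libraries with INHA under 200 CPM by edgeR 4.0.16 in R 4.3.3 (glmQLFit with robust estimation, TMM factors of 0.939 to 1.036, filterByExpr by group, no covariate), with Benjamini-Hochberg adjustment over all genes tested; 9912 genes remained, 8137 of them with a symbol, and the common biological coefficient of variation was 0.5. A standard error is the log2 fold change over the square root of the F value. The difference from the other 9 libraries was tested as an interaction over 4 groups. DESeq2 1.42.0 and limma 3.58.1 (voom) were alternatives, beside other scalings, filters, thresholds, covariates (INHA; the mean log2 CPM of T and NK genes), counts per accession, a replicate block and leaving out each library. The test was tried on simulated counts of 9550 genes. No pair among the 7 libraries agreed within sampling noise (lowest chi-square per gene 67.9).

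The members and the 45 gene lists (633 symbols, 512 of them in the files) were chosen with earlier results of these data known, and no list was tested. Named genes were those past the threshold, filled to 25 with the smallest p (symbol known, mean log2 CPM 1 or more), with the leading and most abundant genes of each list and the 6 markers; for the difference from the other libraries the 10 lowest p were named. Genes named because a library stood apart in them were chosen after their values were seen. Some listed genes are not reported here. No sequences are printed, since no sequence table was used here.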

Additional observations from a re-analysis of the deposited data

Results flagged for a closer look

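Among the 4 control libraries, 5 of 91 values tested held 1 library whose gap to the nearest other exceeded Dixon's 95% critical value for 4 samples as a share of the range, which chance gives in about 1 of 20 groups. GLT1D1 was at 2.07 CPM in control 5 and at 0.242 to 0.375 CPM in the other 3 control libraries. COL1A1 was at 66.7 CPM in control 9 and at 268 to 300.3 CPM in the others. SERPINE2 was at 144.7 CPM in control 1 and at 106 to 111 CPM in the others. Immediate early genes averaged a log2 CPM of 5.08 in control 5 and 5.81 to 5.95 in the others. The mean log2 CPM of the glycolysis and hypoxia list was 7.04 in control 9 and 8.17 to 8.31 in the others.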

How the results depend on the processing

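The count of genes passing in treatment against control was 0 in edgeR under every alternative scaling, filter, covariate and threshold tried and with each library left out (lowest 0, highest 0), as in limma-voom, and 1 in DESeq2. The number at an unadjusted p under 0.05 ran from 170 without control 1 to 380 without control 5, and was 462 with no filter and 163 with all 16 libraries in the fit, against 259. The median of all genes moved by under 0.1 with other scalings. INHA adjusted for itself, which fixes its value, was -0.17. With the T and NK score as covariate CD68 became -0.012, PTPRC -0.30 and CD3E, a member of that score and so drawn to 0 by it, -0.094. Without control 9 and treatment 1 together, an alternative chosen after seeing the data, INHA became -0.51, INHBA -0.43 and SERPINE2 -0.30, and 0 genes passed. With each library left out in turn CYP19A1 ran from -0.29 to 5.64, INHA from -1.03 to 4.54, INHBA from -0.58 to 4.40, SERPINE2 from -0.24 to 2.76, CD68 from -0.089 to 0.45, PTPRC from -0.093 to 0.64 and SELP from -0.012 to 6.97. The other genes for which the alternatives were computed kept their direction where a value was given. Most genes of the lists were not among them. The medians of 27 of 42 lists changed sign with at least 1 library left out. No paired analysis was possible among the 7 libraries because control and treatment share only replicate number 1. For the difference from the other libraries, the fit with the replicate block also passed 0 genes (614 at an unadjusted p under 0.05, against 609, and 987 with no filter); same-numbered samples correlated between -0.229 and 0.287, and 1 of 7 numbers correlated best with its own. That count was 0 with each library left out (lowest 0, highest 0). Depth limits genes under about 0.375 CPM, where a library holds 3 counts or fewer.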
